A study of Mus musculus with 23 samples.

Results

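CD25+CD49f- cells were compared with CD25-CD49f+ cells, the 2 single positive gates of a sort of mouse CD4+ T cells by CD25 (the interleukin-2 receptor alpha chain) and CD49f (integrin alpha 6). Arrays were assigned by their titles, which put 5 of the 23 arrays of the series in the CD25+CD49f- gate and 7 in the CD25-CD49f+ gate. Of the other 11 arrays, 4 were of the CD25+CD49f+ gate and 7 of the CD25-CD49f- gate, and these entered the fit to share in its estimate of the spread. Total RNA was labelled with biotin and hybridised to oligonucleotide arrays, and 18194 genes were tested. Every value below is a log2 level, or a difference of log2 levels taken as CD25+CD49f- minus CD25-CD49f+, so that a difference of 1 is a 2-fold change. Both gates carried the same labels, T cells of female mice as biological replicates, with no treatment and no altered allele. The tissue, strain and age of the mice, and whether cells of several mice were pooled, are not given in the sources used here. The labels do not say that replicates came from separate mice, so a p-value here is set against the spread of these samples only, which may be technical.

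Regulatory T cells (Treg cells) are CD4+ T cells that hold immune responses in check, and the transcription factor Foxp3 sets their identity. They carry CD25 as the part of the receptor that binds interleukin-2 tightly, and the signal of that receptor runs through the factor STAT5 and sustains Foxp3. Other CD4+ T cells gain CD25 for a time after activation. CD49f pairs with the integrin beta 1 or beta 4 chain to form receptors for laminin, a protein of basement membranes. Effector CD4+ T cells are sorted into types by their lead factors and cytokines, such as T-bet and interferon gamma in Th1 cells or RORgt and interleukin-17 in Th17 cells, and Treg cells can share parts of these programmes.

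The CD4 label held in both gates. Cd4 had levels of 9.39, 9.44, 9.38, 9.44 and 9.33 in the 5 CD25+CD49f- arrays, against a lowest of 9.39, a median of 9.49 and a highest of 9.88 in the 7 CD25-CD49f+ arrays, and the groups overlapped (-0.14 ± 0.09, SE, adjusted p = 0.541). Of 10 measured genes that define CD4+ T cells, 8 did not pass the test. The other 2 (20.0%, against 3.63% of all genes) were lower in CD25+CD49f- cells, the surface protein Thy1 and the costimulatory receptor Cd28. One array of each gate stood apart from its group. CD25+CD49f- replicate 5 had a median correlation of 0.9815 with its group, against 0.9947 to 0.9954 for the other 4, and its Actb control probe sets differed by 4.83 between the 3' and 5' ends, against 1.26 to 2.09 in the other 4 and 1.22 to 1.50 in CD25-CD49f+ cells. CD25-CD49f+ replicate 1 had a median correlation of 0.9843 with its group, against 0.9957 to 0.9966 for the other 6. Although every array was labelled female, Y-linked transcripts were high in CD25+CD49f- replicates 3 and 4 and CD25-CD49f+ replicates 5 to 7, where Xist, the transcript of the silenced X chromosome, was low. CD25+CD49f- replicate 5 showed both, with Xist at 10.67 and the Y-linked Eif2s3y at 8.01. On arrays with Y-linked transcripts and without Xist the Xist probe set read up to 6.50, and levels under this are called background below.

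CD25+CD49f- cells had more of the transcripts of Treg identity, of the interleukin-2 response and of a Th17-like set of receptors and membrane proteins. They had far less of the transcripts of mitosis, and less of the Th1 factor T-bet, of interferon gamma and of the integrin beta 1 chain. Of the 18194 genes, 951 (5.23%) were higher and 661 (3.63%) lower in CD25+CD49f- cells, 8.86% in all, by limma at an adjusted p under 0.05. Percentages of called list members below are to be read against these shares, 5.23% higher and 3.63% lower. The difference reached 1 in 159 of the higher and 141 of the lower genes, and it reached 2 in 36 and 10. The median difference over all genes was 0.01 and the median SE 0.108. The 5 and 7 arrays did not overlap for 796 genes (4.38%) in the higher direction and 534 (2.94%) in the lower. In the group where they were lower, 415 of the higher genes (in CD25-CD49f+ cells) and 267 of the lower genes (in CD25+CD49f- cells) had a mean in the background range. Their differences thus lie partly below that level, which was read from the Xist probe set alone and is not a measured limit for other probe sets. Without the 4 arrays of the series that stood apart, 1600 genes were higher and 1004 lower, among them 1548 of the 1612 calls. Within the arrays without Y-linked transcripts (2 against 4) 470 were higher and 225 lower, and within those with Y-linked transcripts and no Xist (2 against 3) 237 were higher and 188 lower. Of the 1612 calls, 674 and 418 were called in the same direction in these subsets. None was called in the opposite direction in either subset, but the subsets are part of the same arrays, so this says little.

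**Figure D1:**
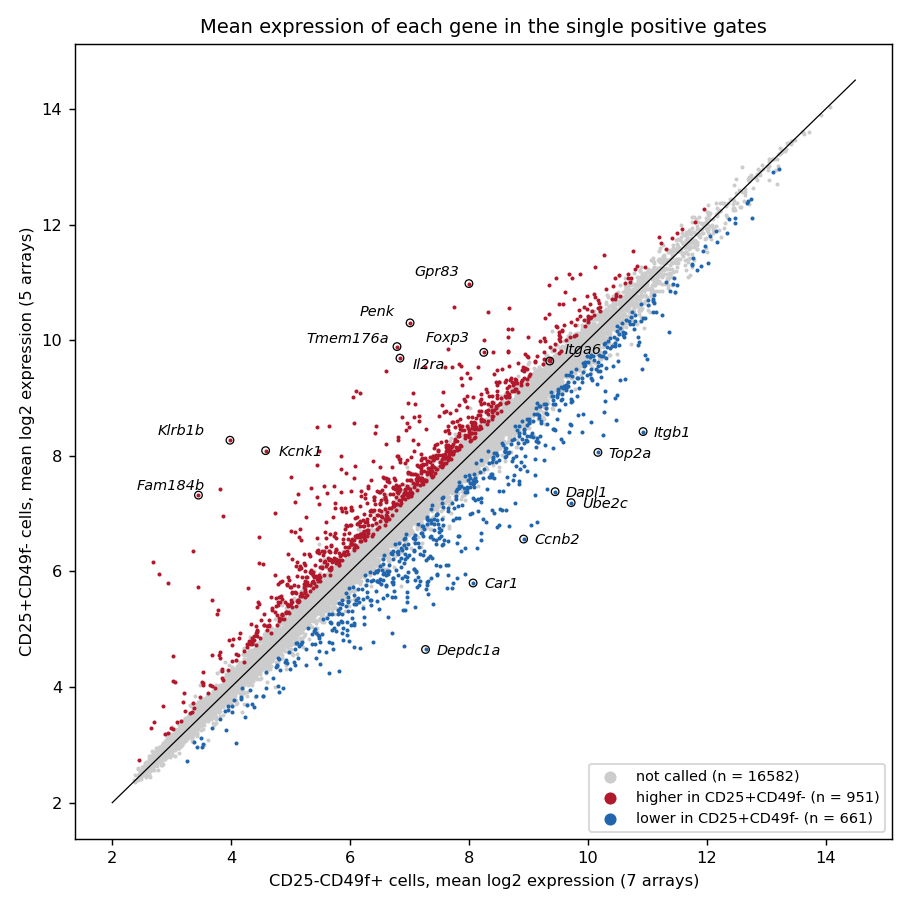
Mean log2 level of each of the 18194 genes in CD25+CD49f- cells (5 arrays, vertical axis) against CD25-CD49f+ cells (7 arrays, horizontal axis), with the line of equal means. Red points are the 951 genes higher and blue points the 661 genes lower in CD25+CD49f- cells, and Klrb1b and Fam184b lie farthest above the line.

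The genes of the sort did not follow it alike. Il2ra, which encodes CD25, had levels of 9.79, 9.81, 9.59, 9.79 and 9.45 in CD25+CD49f- arrays, against a lowest of 6.46, a median of 6.90 and a highest of 7.09 in CD25-CD49f+ arrays. Every CD25+CD49f- array was far above every CD25-CD49f+ array (2.85 ± 0.12, SE, adjusted p = 1.74e-15). Itga6, which encodes CD49f, had levels of 9.84, 9.79, 9.58, 9.73 and 9.28 in the CD49f- arrays, against a lowest of 9.23, a median of 9.37 and a highest of 9.47 in the CD49f+ arrays. The transcript was thus no lower in the cells sorted without the protein: 4 of the 5 CD25+CD49f- arrays were above all CD25-CD49f+ arrays and replicate 5 was below the CD25-CD49f+ median. Its difference of 0.29 ± 0.09 (SE) passed the test narrowly (adjusted p = 0.0429) and did not pass without any 1 of 10 arrays, all except CD25+CD49f- replicate 5 and CD25-CD49f+ replicate 6, with adjusted p of up to 0.146. A further Itga6 probe set differed by 0.15 ± 0.25 (SE, adjusted p = 0.919). Itgb1, the beta chain that pairs with CD49f, had levels of 9.14, 8.87, 8.51, 8.60 and 6.99 in CD25+CD49f- arrays, against a lowest of 10.24, a median of 11.04 and a highest of 11.19 in CD25-CD49f+ arrays. The groups did not overlap, and Itgb1 had the third largest decrease of the comparison (-2.50 ± 0.25, SE, adjusted p = 5.9e-08). Foxp3 had levels of 9.81, 9.79, 9.90, 9.67 and 9.77 in CD25+CD49f- arrays, against a lowest of 7.80, a median of 8.36 and a highest of 8.46 in CD25-CD49f+ arrays. It was higher by 1.54 ± 0.13 (SE, adjusted p = 3.83e-09) with no overlap, while CD25-CD49f+ cells lay well above the 4.74 ± 0.32 (SD, n = 7) of CD25-CD49f- cells. In such bulk samples, fewer cells of a type and less RNA per cell cannot be told apart.

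**Figure D2:**
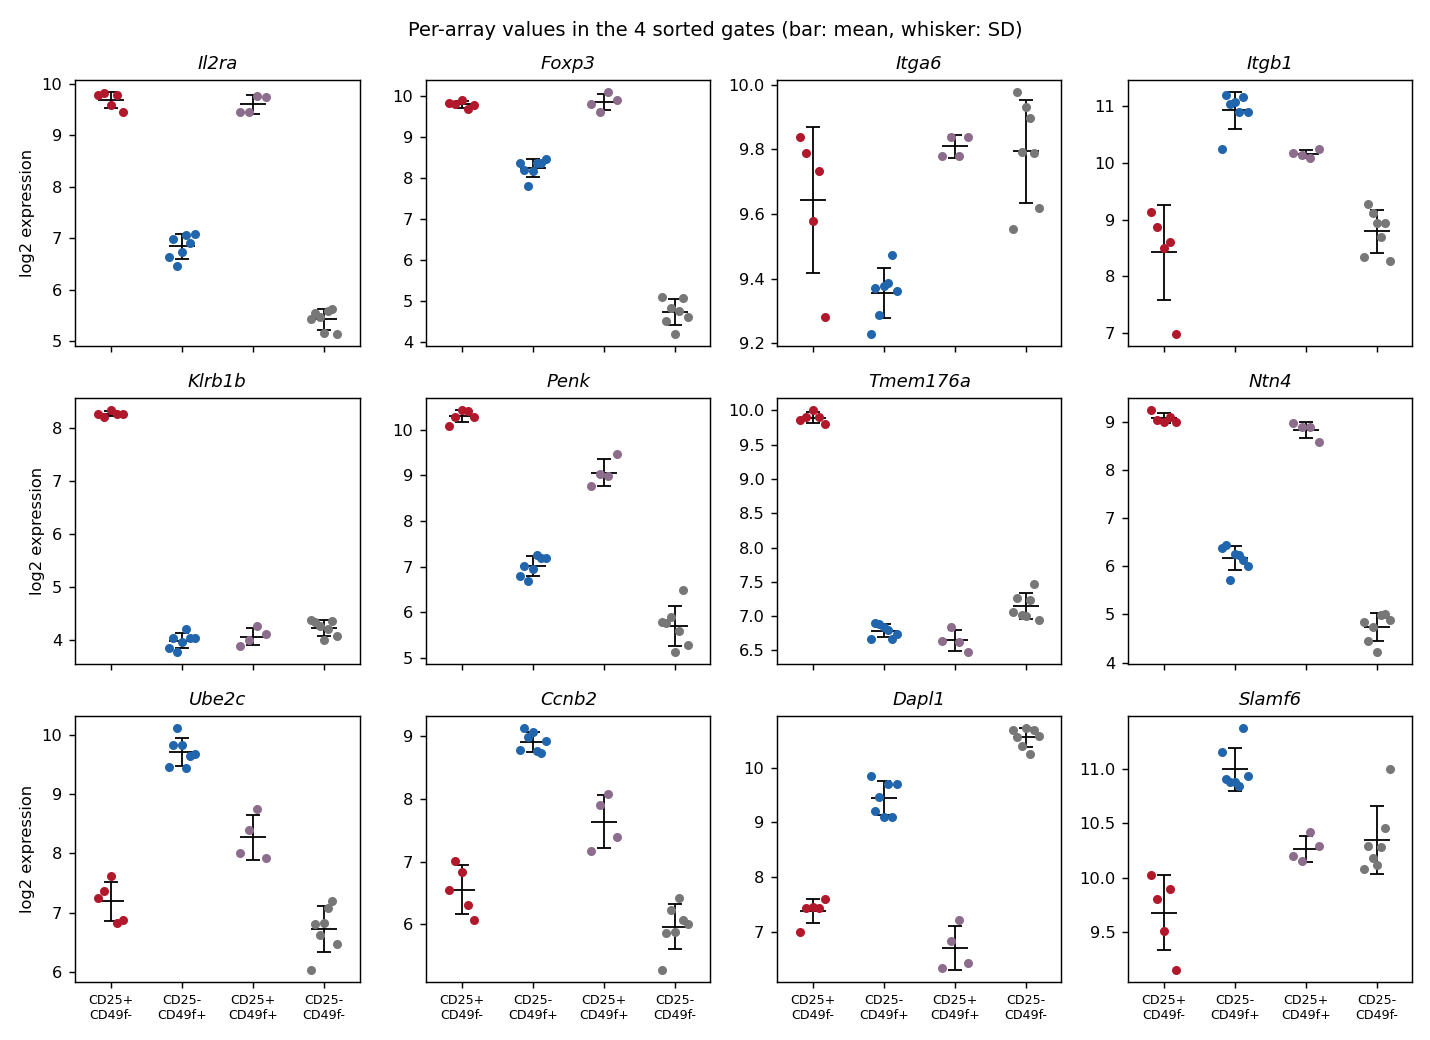
Log2 level of 12 genes on each array (points) in the 4 gates, with the mean (bar) and SD (whiskers). Il2ra and Foxp3 are high in both CD25+ gates, Klrb1b and Tmem176a are high in CD25+CD49f- cells only, and Ube2c and Ccnb2 are highest in CD25-CD49f+ cells.

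The largest increase of all was in Klrb1b, an inhibitory lectin-like receptor of the NKR-P1 family best known from NK cells. It had levels of 8.26, 8.20, 8.34, 8.27 and 8.27 in CD25+CD49f- arrays, against a lowest of 3.78, a median of 4.02 and a highest of 4.20 in CD25-CD49f+ arrays. The CD25-CD49f+ arrays were all in the background range, and the difference was 4.28 ± 0.08 (SE, adjusted p = 7.04e-22). Tmem176a and Tmem176b encode related membrane proteins that are known from RORgt+ lymphocytes. Tmem176a had levels of 9.85, 9.90, 10.01, 9.90 and 9.79 in CD25+CD49f- arrays, against a lowest of 6.66, a median of 6.80 and a highest of 6.90 in CD25-CD49f+ arrays. Its groups were wide apart (3.11 ± 0.09, SE, adjusted p = 7.02e-19), and Tmem176b rose with it (2.82 ± 0.11, SE, adjusted p = 1.63e-15). Penk, the precursor of the enkephalin peptides, had levels of 10.09, 10.27, 10.43, 10.41 and 10.28 in CD25+CD49f- arrays, against a lowest of 6.69, a median of 7.02 and a highest of 7.26 in CD25-CD49f+ arrays, a difference of 3.28 ± 0.17 (SE, adjusted p = 1.55e-13) with no overlap. The other genes among the 12 largest increases above background, with clone numbers passed over, were Fam184b (3.87), the potassium channel subunit Kcnk1 (3.51), the neural adhesion protein Cntn1 (3.10), the transcription factor Arnt2 (3.05), the heparan sulfate proteoglycan Sdc4 (3.03), the G protein-coupled receptor Gpr83 (2.98), Pxdc1 (2.96), the laminin-related secreted protein Ntn4 (2.91) and the heme-binding protein Hebp1 (2.89). For these 9 genes, too, no CD25+CD49f- array overlapped a CD25-CD49f+ array. Some of them rest on the probe set used. Further probe sets of Arnt2 (0.09 and 0.05, adjusted p = 0.886 and 0.927) did not pass, and those of Fam184b differed by 0.28 and -0.06 (0.0252 and 0.923). All of these were in the background range. Further Cntn1 probe sets differed by 2.15 and 0.28 (1.47e-09 and 0.0896). Further probe sets of Kcnk1 (2.28), Sdc4 (1.61), Gpr83 (2.72) and Ntn4 (0.59) were higher too. The clone 1810073O08Rik rose as far, by 3.60. On CD25+CD49f- replicate 5, Fam184b (6.45) and Sdc4 (8.33) read lower than on the other 4 arrays, yet above every CD25-CD49f+ array.

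Many of these genes set CD25+CD49f- cells apart from all other cells of the sort, the CD25+CD49f+ cells included. For 157 genes (0.863% of those tested) all 5 CD25+CD49f- arrays were above all 18 other arrays, and 152 of them were called higher. Klrb1b averaged 8.27 ± 0.05 in the CD25+CD49f- gate (SD, n = 5), against 4.06 ± 0.16 in the CD25+CD49f+ gate (SD, n = 4) and 4.23 ± 0.15 in the CD25-CD49f- gate (SD, n = 7). Tmem176a likewise averaged 9.89 ± 0.08 (SD, n = 5), against 6.65 ± 0.15 (SD, n = 4) in CD25+CD49f+ and 7.14 ± 0.19 in the CD25-CD49f- gate (SD, n = 7). The c-Jun kinase gene Mapk10 (difference 3.48) and the matrix protein gene Abi3bp (3.17) belonged to the same set, but their means of 6.17 ± 0.51 and 5.96 ± 0.43 in the CD25+CD49f- gate (SD, n = 5) were themselves in the background range. Penk and Ntn4 were also in the set, but CD25+CD49f+ cells had them well above the CD25-CD49f+ arrays too, at 9.06 ± 0.29 and 8.84 ± 0.17 (SD, n = 4). Only 5 genes (0.0275%) had all CD25+CD49f- arrays below all other arrays: Slamf6, the endocytic protein gene Ehd3, the neutrophil elastase gene Elane, Nxpe2 and A630023P12Rik, all 5 called lower. Slamf6, a receptor of the SLAM family that steers T cell contacts with B cells, had levels of 10.02, 9.80, 9.52, 9.90 and 9.16 in CD25+CD49f- arrays, against a lowest of 10.84, a median of 10.90 and a highest of 11.37 in CD25-CD49f+ arrays. Its difference was -1.31 ± 0.15 (SE, adjusted p = 3.3e-07). Ehd3 was lower by a smaller step (-0.48 ± 0.08, SE, adjusted p = 9.83e-05). A further Ehd3 probe set did not pass (-0.18 ± 0.20, SE, adjusted p = 0.829), with means of 8.02 in CD25+CD49f- and 8.20 in CD25-CD49f+ cells. The calls of Elane (-0.52) and Nxpe2 (-0.28) were marginal: Elane did not pass when CD25+CD49f- replicate 2 was left out (adjusted p = 0.0505), and Nxpe2 did not pass without CD25+CD49f- replicate 1 (0.0651) or 3 (0.0545) or CD25-CD49f+ replicate 6 (0.051). Both genes had means in the background range in both gates.

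Transcripts of mitosis were lower in CD25+CD49f- cells almost throughout, and their list had the lowest median difference of all lists. Of 31 measured genes for cyclins, kinases, spindle and kinetochore proteins, 29 were lower in CD25+CD49f- cells, none was higher and 2 did not pass, with a median difference of -1.61 against 0.01 over all genes. The count of lower members was also 29 without any 1 of the 12 arrays and without the 4 arrays that stood apart. The lower members were 93.5% of the list, against 3.63% of all genes. The 5 and 7 arrays did not overlap in the lower direction for 28 of the 31 genes, against 2.94% of all genes. The promoters of 3 of these genes are shown because the cyclin B2 and cyclin-dependent kinase 1 genes and the E2 enzyme gene Ube2c moved together, and because they hold both motifs known from promoters of mitosis genes. Each is the 250 bases before the start of transcription from RefSeq (GRCm38.p6), read 5' to 3' on the gene's strand, with TTTGAA (the cell cycle homology region), CCAAT (the CCAAT box) and their reverse complements in capitals.
Ube2c, chr2:164769679-164769928, plus strand: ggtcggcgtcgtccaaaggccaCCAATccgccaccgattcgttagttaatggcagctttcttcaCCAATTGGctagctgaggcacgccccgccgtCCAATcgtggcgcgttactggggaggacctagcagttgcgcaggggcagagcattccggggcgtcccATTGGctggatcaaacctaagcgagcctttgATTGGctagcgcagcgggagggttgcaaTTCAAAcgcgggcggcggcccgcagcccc
Ccnb2, chr9:70421555-70421804, minus strand: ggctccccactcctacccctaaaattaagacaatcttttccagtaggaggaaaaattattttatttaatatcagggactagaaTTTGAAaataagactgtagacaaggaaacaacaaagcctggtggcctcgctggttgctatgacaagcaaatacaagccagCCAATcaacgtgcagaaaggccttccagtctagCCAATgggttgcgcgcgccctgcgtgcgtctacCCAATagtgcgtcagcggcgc
Cdk1, chr10:69352913-69353162, minus strand: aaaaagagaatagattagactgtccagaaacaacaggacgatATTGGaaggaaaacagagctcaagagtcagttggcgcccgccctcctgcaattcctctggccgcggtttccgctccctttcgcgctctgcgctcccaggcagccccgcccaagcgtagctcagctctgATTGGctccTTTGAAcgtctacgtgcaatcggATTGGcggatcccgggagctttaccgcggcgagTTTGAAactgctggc
On either strand, Ube2c had 1 match to TTTGAA and 6 to CCAAT, with 2 CCAAT matches that overlap, Ccnb2 had 1 and 3, and Cdk1 had 2 and 3. Of the 27 mitosis genes with a promoter in the table, 11 (40.7%) held TTTGAA, against 18.3% of all 27025 genes, and 21 (77.8%) held CCAAT, against 37.5% of all genes. These matches describe letters and say nothing of binding.

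Ube2c, the E2 enzyme of the anaphase-promoting complex, had levels of 7.25, 7.37, 7.62, 6.83 and 6.88 in CD25+CD49f- arrays, against a lowest of 9.45, a median of 9.68 and a highest of 10.13 in CD25-CD49f+ arrays. The groups stood far apart (-2.53 ± 0.18, SE, adjusted p = 1.79e-10). Ccnb2, cyclin B2, had levels of 6.55, 7.02, 6.84, 6.31 and 6.07 in CD25+CD49f- arrays, against a lowest of 8.73, a median of 8.93 and a highest of 9.14 in CD25-CD49f+ arrays, again with no overlap (-2.36 ± 0.18, SE, adjusted p = 4.26e-10). Cdk1, the kinase that cyclin B activates, was at 6.73, 6.97, 7.01, 6.55 and 6.61 in CD25+CD49f- arrays, against a lowest of 8.08, a median of 8.46 and a highest of 8.77 in CD25-CD49f+ arrays (-1.71 ± 0.13, SE, adjusted p = 6.09e-10). In all 3 genes the lowest CD25+CD49f- arrays were replicates 4 and 5. The topoisomerase Top2a fell by a similar step (-2.11 ± 0.18, SE, adjusted p = 4.91e-09), as did Birc5 of the chromosomal passenger complex (-2.29 ± 0.17, SE, adjusted p = 3.56e-10) and the spindle protein gene Nusap1 (-2.25 ± 0.25, SE, adjusted p = 3.64e-07). The largest decrease of the comparison was in Depdc1a (-2.62 ± 0.28, SE, adjusted p = 1.59e-07), whose mean of 4.65 ± 0.37 in the CD25+CD49f- gate (SD, n = 5) was in the background range. Beyond the list, the spindle protein gene Spag5 (-2.20) and the cytokinesis kinesin gene Kif23 (-1.93) also fell. The uncalled members were Tpx2 (0.07 ± 0.19) and Cdca3 (0.01 ± 0.12), but these rest on the choice of probe set: 2 further Tpx2 probe sets differed by -2.28 and -0.81 and a further Cdca3 probe set by -1.59.

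Among the 4 gates, mitosis transcripts such as Ube2c and Ccnb2 were highest in CD25-CD49f+ cells, and CD25+CD49f- cells lay near the CD25-CD49f- cells at the low end. Ube2c averaged 7.19 ± 0.34 in the CD25+CD49f- gate (SD, n = 5), against 8.27 ± 0.39 in the CD25+CD49f+ gate (SD, n = 4), 6.72 ± 0.39 in the CD25-CD49f- gate (SD, n = 7) and 9.72 ± 0.24 in the CD25-CD49f+ gate (SD, n = 7). Of 27 measured genes of DNA replication and S phase, 10 were lower (37.0%), none was higher and 17 did not pass, with a median difference of -0.32. The replication clamp partner Pclaf (-1.89 ± 0.22, SE, adjusted p = 7.07e-07), the ribonucleotide reductase subunit Rrm2 (-1.42 ± 0.21, SE, adjusted p = 2.16e-05), cyclin E2 (Ccne2, -1.23 ± 0.18, SE, adjusted p = 2.21e-05) and the DNA methylation cofactor Uhrf1 (-0.97 ± 0.13, SE, adjusted p = 6.45e-06) fell most clearly. The helicase subunits Mcm2 to Mcm7 did not pass, with differences of -0.40 (Mcm6) to -0.03 (Mcm2). Without the 4 arrays that stood apart 17 of the 27 genes were lower.

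**Figure D3:**
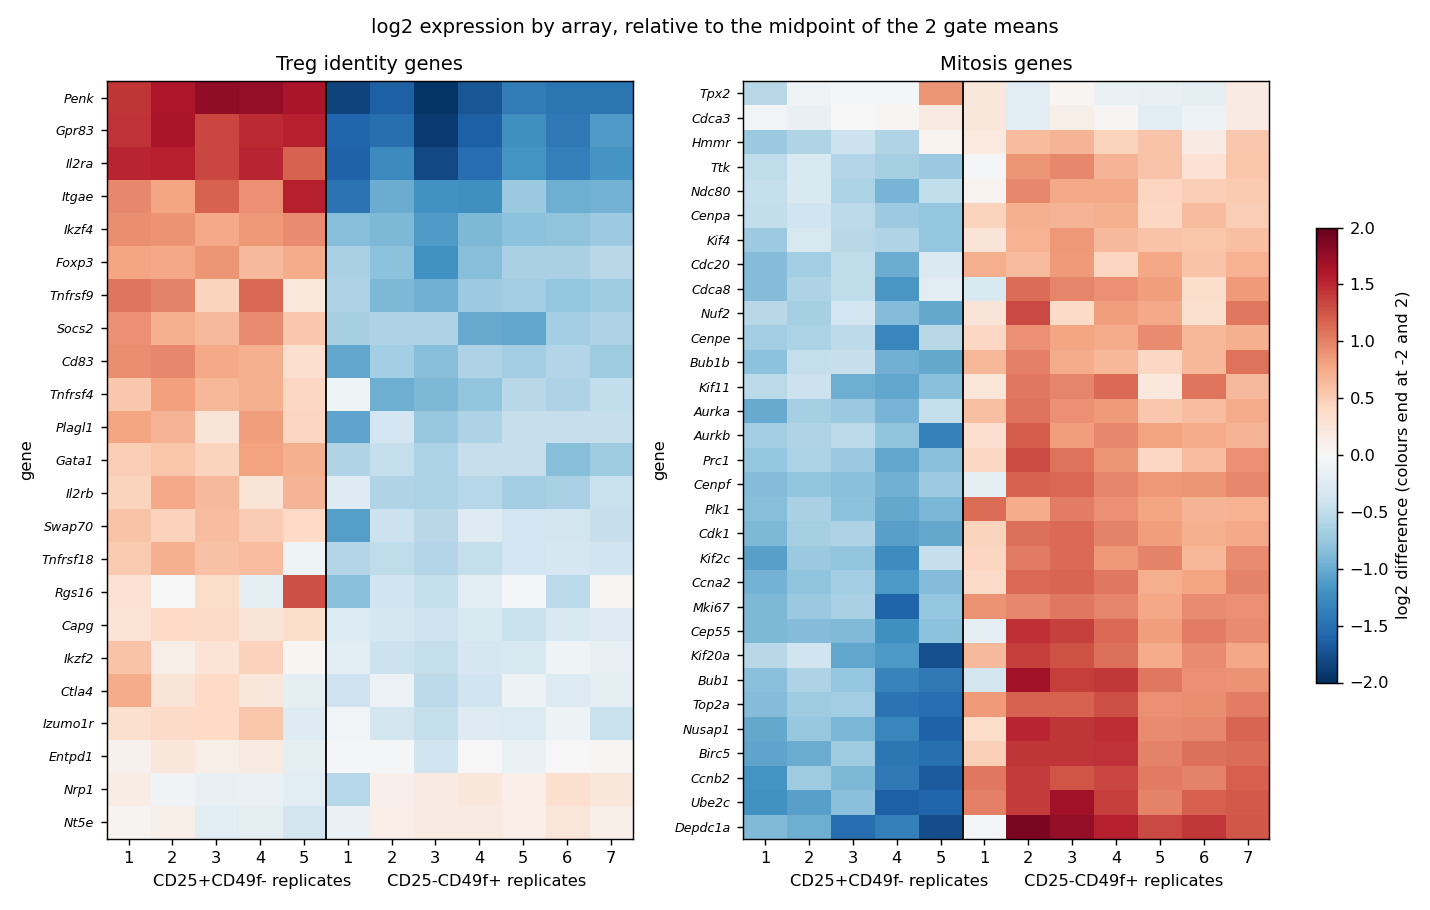
Log2 level of the 23 measured Treg identity genes (left) and 31 measured mitosis genes (right) on each CD25+CD49f- array (5, left of the line) and CD25-CD49f+ array (7), relative to the midpoint of the means of both gates. Colours end at -2 and 2, and the 20 called Treg identity genes are redder and the 29 called mitosis genes bluer in CD25+CD49f- cells, with CD25-CD49f+ replicate 1 paler than its group in many mitosis genes.

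Of 23 measured Treg identity genes, 20 were higher in CD25+CD49f- cells (87.0%, against 5.23% of all genes). None was lower and 3 did not pass, with a median difference of 1.20. The 20 include Il2ra, which encodes the sort marker CD25, so its call follows from the sort. Leaving out any 1 array gave 18 to 20 calls. Besides Il2ra, Foxp3 and Penk these included Gpr83, at 10.93, 11.13, 10.83, 10.99 and 11.05 in CD25+CD49f- arrays, against a lowest of 7.58, a median of 7.98 and a highest of 8.36 in CD25-CD49f+ arrays. Gpr83 arrays of the gates were more than 2 log2 units apart (2.98 ± 0.10, SE, adjusted p = 5.34e-17). The zinc finger factor Ikzf4 (Eos), a partner of Foxp3, was at 9.64, 9.61, 9.46, 9.57 and 9.66 in CD25+CD49f- arrays, against a lowest of 7.59, a median of 7.87 and a highest of 7.99 in CD25-CD49f+ arrays (1.75 ± 0.14, SE, adjusted p = 2.23e-09). The receptors of the TNF family Tnfrsf9 (4-1BB, 1.54 ± 0.16, SE, adjusted p = 1.31e-07), Tnfrsf4 (OX40, 1.27 ± 0.13, SE, adjusted p = 1.38e-07) and Tnfrsf18 (GITR, 0.94 ± 0.11, SE, adjusted p = 5.73e-07) rose, with no overlap of the arrays. The steps were small for the inhibitory receptor Ctla4 (0.58 ± 0.15, SE, adjusted p = 0.0139) and the folate receptor family gene Izumo1r (0.57 ± 0.16, SE, adjusted p = 0.0244), whose arrays overlapped. Ctla4 did not pass without CD25+CD49f- replicate 1 (adjusted p = 0.0662), and Izumo1r did not pass without any 1 of 6 arrays, CD25+CD49f- replicates 1 to 4 and CD25-CD49f+ replicates 3 and 7 (adjusted p 0.0506 to 0.0843). The ectoenzymes Nt5e (CD73) and Entpd1 (CD39), which together turn extracellular ATP into adenosine, did not pass, with differences of -0.24 ± 0.13 and 0.16 ± 0.11 (SE), and neither did Nrp1 (-0.18). Foxp3 averaged 9.79 ± 0.08 in the CD25+CD49f- gate (SD, n = 5), close to the 9.85 ± 0.20 (SD, n = 4) of CD25+CD49f+ cells.

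Among 19 measured genes of Treg suppressive function, 7 were higher (36.8%), 1 was lower (5.3%) and 11 did not pass, with a median difference of 0.30. Klrg1, an inhibitory lectin-like receptor of differentiated lymphocytes, was at 9.90, 9.99, 9.77, 9.77 and 9.83 in CD25+CD49f- arrays, against a lowest of 7.49, a median of 7.58 and a highest of 7.95 in CD25-CD49f+ arrays. The gates were well apart (2.20 ± 0.10, SE, adjusted p = 3e-14). Galectin 3 (Lgals3, 1.47 ± 0.13, SE, adjusted p = 6.55e-09), the interleukin-35 and interleukin-27 subunit Ebi3 (1.46 ± 0.14, SE, adjusted p = 3.08e-08) and granzyme B (Gzmb, 0.88 ± 0.11, SE, adjusted p = 2.95e-06) rose as well. In each of these 4 genes all CD25+CD49f- arrays were above all 18 other arrays. Interleukin-10 had levels of 6.43, 5.78, 6.02, 6.19 and 5.76 in CD25+CD49f- arrays, against a lowest of 4.80, a median of 5.14 and a highest of 5.54 in CD25-CD49f+ arrays. Its groups did not overlap (0.90 ± 0.14, SE, adjusted p = 7.24e-05), but all 12 arrays were in the background range. The galectin 1 gene Lgals1 was the lower member (-0.67), and Tgfb1 (0.01), Icos (0.03) and the factors Irf4 (-0.09), Batf (0.06) and Maf (-0.06) did not pass.

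Of 20 measured targets of interleukin-2 and STAT5, 10 were higher, none was lower and 10 did not pass, with a median difference of 0.42. The sort gene Il2ra is again among the higher members. Leaving out any 1 array gave 10 to 12 higher members, and 1 lower member without CD25+CD49f- replicate 1 or 2. The STAT5-induced inhibitor gene Cish had levels of 10.32, 10.36, 10.09, 10.15 and 10.06 in CD25+CD49f- arrays, against a lowest of 8.41, a median of 8.74 and a highest of 9.03 in CD25-CD49f+ arrays. The gates did not overlap (1.48 ± 0.11, SE, adjusted p = 3.78e-10), and the related inhibitor gene Socs2 rose alike (1.50 ± 0.12, SE, adjusted p = 1.44e-09). Lta, lymphotoxin alpha, had levels of 8.72, 8.67, 8.85, 8.83 and 8.25 in CD25+CD49f- arrays, against a lowest of 6.96, a median of 7.10 and a highest of 7.24 in CD25-CD49f+ arrays (1.58 ± 0.11, SE, adjusted p = 6.32e-11). Every CD25+CD49f- array was at least 1 log2 unit above every CD25-CD49f+ array. The promoter of Lta is shown because it holds TTCNNNGAA, the core of STAT sites, with the matches in capitals, again from RefSeq (GRCm38.p6) over the 250 bases before the start.
Lta, chr17:35205352-35205601, minus strand: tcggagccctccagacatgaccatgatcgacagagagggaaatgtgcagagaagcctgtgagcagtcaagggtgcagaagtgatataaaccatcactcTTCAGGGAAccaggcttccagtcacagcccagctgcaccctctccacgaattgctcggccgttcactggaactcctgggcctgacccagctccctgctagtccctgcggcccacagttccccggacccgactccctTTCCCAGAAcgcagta
It held 2 matches. The motif was found in 3 of the 15 genes of the group with a promoter in the table (20.0%), against 8.1% of all 27025 genes. The receptor beta chain Il2rb (1.11 ± 0.11, SE, adjusted p = 3.17e-08) and the anti-apoptotic Bcl2 (1.11 ± 0.12, SE, adjusted p = 1.26e-07) rose, as did the related survival genes Bcl2l1 (0.56) and Mcl1 (0.34). A further Il2rb probe set did not pass (0.50 ± 0.18, SE, adjusted p = 0.119). Socs1 (0.45), Socs3 (0.15), Myc (0.34), Pim1 (0.39) and the cyclin genes Ccnd2 (0.21) and Ccnd3 (-0.41) did not pass. The cytokine gene Il2 itself went the other way, at 5.44, 5.46, 5.64, 5.67 and 5.27 in CD25+CD49f- arrays, against a lowest of 5.98, a median of 6.40 and a highest of 6.81 in CD25-CD49f+ arrays (-0.85 ± 0.17, SE, adjusted p = 0.00104). These Il2 levels were near or in the background range in both gates. Of 20 measured receptors of the common gamma chain and other cytokines, 4 were higher, Il2ra, Il2rb, the interleukin-17 receptor family gene Il17re and Il4ra (0.42), or 8 without the 4 arrays that stood apart. The TGF-beta receptors Tgfbr2 (-0.46) and Tgfbr3 (-0.58) were lower, but neither was without CD25+CD49f- replicate 3 or 5 or CD25-CD49f+ replicate 6, and 1 of them was without CD25-CD49f+ replicate 3 or 5. Il7r (0.09), Il6st (0.05) and Il27ra (-0.01) did not pass.

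Of 11 measured Th17 genes, 6 were higher (54.5%) and none lower in CD25+CD49f- cells, with a median difference of 0.80, and 6 were higher without any 1 array too. Besides Tmem176a and Tmem176b these were the receptors Il17re, Il1r1 and Ccr6 and the ligand-activated factor Ahr (0.80). Il17re, which binds interleukin-17C, had levels of 8.68, 8.56, 8.58, 8.79 and 8.01 in CD25+CD49f- arrays, against a lowest of 6.29, a median of 6.44 and a highest of 6.56 in CD25-CD49f+ arrays. The CD25-CD49f+ arrays lay about the background level, and the groups were apart (2.09 ± 0.10, SE, adjusted p = 9.3e-14). This rests on the probe set used: further Il17re probe sets differed by 0.21 and 0.18 and did not pass (adjusted p = 0.42 and 0.386). The first of these had means of 6.78 in CD25+CD49f- and 6.57 in CD25-CD49f+ cells. Il1r1, the signalling receptor for interleukin-1, had levels of 7.88, 7.83, 7.37, 7.51 and 6.81 in CD25+CD49f- arrays, against a lowest of 5.35, a median of 5.60 and a highest of 5.77 in CD25-CD49f+ arrays, with replicate 5 the lowest of its gate (1.91 ± 0.14, SE, adjusted p = 1.79e-10). The chemokine receptor gene Ccr6 had levels of 10.03, 9.75, 10.50, 10.15 and 9.59 in CD25+CD49f- arrays, against a lowest of 7.75, a median of 8.25 and a highest of 8.52 in CD25-CD49f+ arrays (1.75 ± 0.14, SE, adjusted p = 1.76e-09). All 3 receptors were above every array of the other gates as well. The cytokine genes Il17a (0.07) and Il21 (-0.11) did not pass, with means in the background range, nor did Rora (-0.11), Stat3 (0.11) and Batf (0.06). Of 9 measured receptors and inhibitors of the interleukin-1 and interleukin-18 families, 4 were higher (44.4%) and 1 lower (11.1%). The decoy receptor Il1r2 rose with Il1r1 (1.05 ± 0.11, SE, adjusted p = 1.6e-07), while the interleukin-36 receptor Il1rl2 fell (-1.23 ± 0.12, SE, adjusted p = 4.27e-08). The other higher members, Il18r1 (0.32) and Sigirr (0.30), were marginal, and 2 genes in place of 4 were higher without CD25+CD49f- replicate 1 or 3 or CD25-CD49f+ replicate 3 or 4.

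The Th1 factor T-bet, interferon gamma and the receptor Cxcr3 were lower in CD25+CD49f- cells. Of 13 measured Th1 genes 4 were lower (30.8%), 2 higher (15.4%) and 7 did not pass, with a median difference of -0.11. Tbx21, the Th1 factor T-bet, had levels of 7.40, 7.74, 7.63, 7.23 and 7.60 in CD25+CD49f- arrays, against a lowest of 8.51, a median of 8.69 and a highest of 8.78 in CD25-CD49f+ arrays. The groups did not overlap (-1.13 ± 0.11, SE, adjusted p = 4.05e-08). Its target Cxcr3, a chemokine receptor of Th1 cells, had levels of 9.42, 9.69, 9.29, 9.36 and 8.88 in CD25+CD49f- arrays, against a lowest of 10.53, a median of 10.61 and a highest of 10.77 in CD25-CD49f+ arrays (-1.30 ± 0.11, SE, adjusted p = 2.08e-09). Ifng, interferon gamma, had levels of 8.04, 7.25, 7.94, 7.15 and 7.79 in CD25+CD49f- arrays, against a lowest of 8.25, a median of 8.64 and a highest of 9.30 in CD25-CD49f+ arrays (-1.01 ± 0.24, SE, adjusted p = 0.00526). For all 3 genes the CD25-CD49f+ arrays were above those of every other gate. Stat4 was lower as well (-0.41, adjusted p = 0.0338). Eomes, the T-box factor related to T-bet, was higher instead (0.73 ± 0.16, SE, adjusted p = 0.0025), and the further higher member, Il18r1, was lost without any 1 of 7 arrays, CD25+CD49f- replicates 1, 3 and 5 and CD25-CD49f+ replicates 1, 3, 4 and 7. Of 12 measured Th2 genes 2 were higher (16.7%), Il10 and the receptor Il4ra (0.42). None was lower (1 without CD25-CD49f+ replicate 1 or 7), and the lead factor Gata3 differed by 0.10 (adjusted p = 0.76).

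Secreted and cytotoxic genes divided between the gates. Of 15 measured cytotoxic effector genes, 4 were lower (26.7%) and 2 higher (13.3%) in CD25+CD49f- cells, or 4 higher without CD25+CD49f- replicate 5. Granzyme K (Gzmk) had levels of 6.41, 6.37, 6.43, 6.15 and 6.43 in CD25+CD49f- arrays, against a lowest of 7.62, a median of 7.86 and a highest of 8.11 in CD25-CD49f+ arrays, so that granzyme K fell (-1.51 ± 0.13, SE, adjusted p = 2.6e-09) where granzyme B rose. Fas ligand (Fasl) fell too (-0.88 ± 0.08, SE, adjusted p = 3.08e-08), as did Ccl5 (-0.56) and Nkg7 (-0.37), and the lysosomal membrane protein gene Lamp1 rose by a small step (0.36 ± 0.06, SE, adjusted p = 8.5e-05). Perforin (Prf1, -0.06) and granzyme A (Gzma, -0.52) did not pass. Of 21 measured T cell cytokine genes 3 were higher (14.3%), Lta, Ebi3 and Il10, and 3 were lower (14.3%), Ifng, Il2 and Tgfb3 (-0.61). Of the 21, 11 were in the background range in both gates, among them the called Il10, Il2 and Tgfb3.

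Receptors for migration and adhesion changed in both directions. Of 20 measured chemokine and related receptors, 3 were higher and 4 lower. Ccr9, which guides T cells to the gut and marks some thymocytes, had levels of 8.38, 8.77, 8.24, 8.87 and 9.06 in CD25+CD49f- arrays, against a lowest of 6.37, a median of 6.81 and a highest of 7.31 in CD25-CD49f+ arrays. It rose with no overlap (1.79 ± 0.20, SE, adjusted p = 4.36e-07), beside Ccr6 and Ccrl2 (0.69). Ccr10, a receptor of skin homing, fell (-1.08 ± 0.14, SE, adjusted p = 5.38e-06) beside Cxcr3, and so did Cxcr5 (-0.62) and Gpr183 (-0.46), but without CD25+CD49f- replicate 5 only 2 of these 4 were lower. Ccr7 (-0.06) and Cxcr4 (0.09) did not pass. Of 23 measured integrin genes 3 were higher (13.0%) and 3 lower (13.0%), against 5.23% and 3.63% of all genes. The higher ones include the sort gene Itga6, with its narrow call. Itgae, the CD103 chain that binds epithelial E-cadherin, had levels of 10.36, 10.20, 10.58, 10.32 and 10.96 in CD25+CD49f- arrays, against a lowest of 7.93, a median of 8.41 and a highest of 8.67 in CD25-CD49f+ arrays. It was above every array of the other gates (2.16 ± 0.18, SE, adjusted p = 3.45e-09). Itgb8, whose protein activates latent TGF-beta, rose (1.52 ± 0.34, SE, adjusted p = 0.00301), with CD25-CD49f+ replicate 1 far below its group at 5.60. Itgb1 and the laminin-binding alpha chain gene Itga7 fell, the second in the background range (-0.92 ± 0.22, SE, adjusted p = 0.00733), and Itgb3 fell by 0.44. The other beta partner of CD49f, Itgb4, did not pass (0.18) and was in the background range.

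Of 14 measured killer lectin-like receptors, 3 were higher (21.4%) and 1 lower (7.1%). The higher ones were Klrb1b, Klrg1 and Klrb1f (1.43 ± 0.11, SE, adjusted p = 1.43e-09). Klrd1 (CD94) was lower (-1.11 ± 0.19, SE, adjusted p = 0.0002), and the remaining 10 did not pass, all of them in the background range. Without CD25-CD49f+ replicate 1 the lower members were 2 in place of 1. Among 20 measured checkpoint and costimulatory receptors, 4 were higher and 2 lower. Cd160 had levels of 7.40, 7.70, 7.55, 7.36 and 7.93 in CD25+CD49f- arrays, against a lowest of 6.18, a median of 6.44 and a highest of 6.51 in CD25-CD49f+ arrays, with no overlap (1.22 ± 0.10, SE, adjusted p = 2.6e-09). Lag3 rose less (0.51 ± 0.12, SE, adjusted p = 0.00577), together with Ctla4 and Slamf1 (0.36). The costimulatory receptor Cd28 (-0.67 ± 0.12, SE, adjusted p = 0.000233) and the inhibitory receptor Btla (-0.50 ± 0.08, SE, adjusted p = 0.000134) fell. The higher members numbered 10 without the 4 arrays that stood apart and 2 without CD25+CD49f- replicate 1. Of 22 measured members of the TNF receptor and ligand families 7 were higher (31.8%), among them Tnfrsf9, Tnfrsf4, Tnfrsf18, Lta, Tnfrsf1b (0.78) and Tnfrsf25 (0.65). Only Fasl was lower (4.5%). Of 19 measured genes of follicular helper and anergic cells, 3 were higher (15.8%), led by the anergy-linked Ndrg1 (1.33 ± 0.14, SE, adjusted p = 1.87e-07). Lower were 4 genes (21.1%), Slamf6, its adaptor Sh2d1a (SAP, -0.71 ± 0.15, SE, adjusted p = 0.00151), Btla and Cxcr5. The other higher members were Izumo1r and Cblb (0.36), and 1 gene in place of 3 was higher without CD25+CD49f- replicate 1, 2, 3 or 4 or CD25-CD49f+ replicate 3 or 7, and 6 were without the 4 arrays that stood apart. The lead factor Bcl6 (0.52) did not pass.

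Genes of the effector and memory state and of the naive state each held members that moved in either direction. Of 25 measured effector and memory genes, 8 were lower (32.0%) and 5 higher (20.0%). The annexin gene Anxa2 had levels of 8.57, 8.93, 8.55, 8.47 and 8.45 in CD25+CD49f- arrays, against a lowest of 9.74, a median of 10.12 and a highest of 10.17 in CD25-CD49f+ arrays. The groups did not overlap (-1.46 ± 0.10, SE, adjusted p = 4.04e-11), and Itgb1, Cxcr3, Lgals1, S100a6 (-0.59), Crip1 (-0.48), Ccl5 and Nkg7 were lower too. Klrg1, Ccr6, Lgals3, Prdm1 (0.65) and Il18r1 were the higher members, and Cd44 differed by -0.14 (adjusted p = 0.808). Of 16 measured naive and lymphoid-homing genes, 3 were lower and 3 higher (18.8% each). Dapl1, a transcript of naive T cells, had levels of 7.01, 7.43, 7.46, 7.43 and 7.60 in CD25+CD49f- arrays, against a lowest of 9.10, a median of 9.47 and a highest of 9.86 in CD25-CD49f+ arrays (-2.06 ± 0.15, SE, adjusted p = 2.68e-10). Both groups lay below the 10.55 ± 0.17 (SD, n = 7) of CD25-CD49f- cells and above or near the 6.71 ± 0.40 (SD, n = 4) of CD25+CD49f+ cells. Pdlim4 (-1.55 ± 0.15, SE, adjusted p = 3.17e-08) and Nsg2 (-1.53 ± 0.14, SE, adjusted p = 1.63e-08) fell with Dapl1, and without CD25+CD49f- replicate 4 the lower members were 5 in place of 3. The repressor gene Bach2, which restrains effector differentiation, rose (0.82 ± 0.11, SE, adjusted p = 3.58e-06) beside Ccr9 and Foxo1 (0.23). Ccr7, Satb1 (0.02), Il7r (0.09) and Lef1 (-0.28) did not pass.

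Some genes set CD25-CD49f+ cells apart from the 3 other gates. All 7 CD25-CD49f+ arrays were above all 16 other arrays for 133 genes (0.731%), of which 127 were called lower in CD25+CD49f- cells, and below them for 22 genes (0.121%), of which 21 were called higher. The first set held the mitosis genes Ube2c, Ccnb2, Birc5, Nusap1, Top2a and Kif23, and also Tbx21, Ifng, Cxcr3, Gzmk, Il2 and Anxa2. The second set held the cilia protein gene Drc1 (1.36, with means of 6.31 ± 0.25 in CD25+CD49f- and 4.95 ± 0.35 in CD25-CD49f+ cells (SD), both in the background range), the phosphatase gene Ppm1l (1.29), Bcl2 (1.11), the glycogen-targeting subunit gene Ppp1r3b (1.09), Treml2 (1.08) and the actin-linked protein gene Afap1 (0.89). Bcl2 had levels of 10.80, 10.65, 10.70, 10.89 and 10.12 in CD25+CD49f- arrays, against a lowest of 9.33, a median of 9.49 and a highest of 9.81 in CD25-CD49f+ arrays. CD25+CD49f- cells averaged 10.63 ± 0.30 (SD, n = 5), near the 10.42 ± 0.11 (SD, n = 4) of CD25+CD49f+ cells and the 10.63 ± 0.17 (SD, n = 7) of CD25-CD49f- cells, and only CD25-CD49f+ cells stood lower, at 9.52 ± 0.19 (SD, n = 7).

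The genes that differed between the gates were also placed by the other gates. The mean of CD25+CD49f+ cells was nearer to that of CD25+CD49f- than of CD25-CD49f+ cells in 593 of the 951 higher genes (62.4%) and in 553 of the 661 lower genes (83.7%), against 52.3% of all genes. The mean of CD25-CD49f- cells was nearer to that of CD25+CD49f- cells in 218 higher genes (22.9%) and in 385 lower genes (58.2%), against 47.1% of all genes. These shares are descriptions, since the difference between them was not tested.

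Of 22 measured genes of the T cell receptor complex and its first signals, none was higher, 5 were lower (22.7%, against 3.63% of all genes) and 17 did not pass, with a median difference of -0.27. Themis, a signal regulator of T cell development, had levels of 7.78 to 8.19 in the 5 CD25+CD49f- arrays, against a lowest of 8.80, a median of 8.96 and a highest of 9.07 in CD25-CD49f+ arrays, with no overlap (-0.95 ± 0.09, SE, adjusted p = 2.68e-08). The phosphatase gene Ptpn22 fell (-0.56 ± 0.12, SE, adjusted p = 0.00214), and Pag1 (-0.47), Sla (-0.46) and Plcg1 (-0.26) were lower by adjusted p of 0.0266, 0.043 and 0.0169. The lower members numbered 2 when CD25+CD49f- replicate 3 was left out, and 3 when CD25+CD49f- replicate 5 or CD25-CD49f+ replicate 2, 3 or 6 was. The chains Cd3d (-0.08), Cd3e (-0.01) and Cd3g (-0.27) did not pass. Of 28 measured early genes of T cell receptor stimulation, 3 were higher (10.7%, against 5.23% of all genes), Nr4a3 (0.81 ± 0.11, SE, adjusted p = 7.65e-06), the MAP kinase phosphatase gene Dusp4 (0.99 ± 0.16, SE, adjusted p = 6.43e-05) and Rgs1 (0.78 ± 0.23, SE, adjusted p = 0.0292). Further Nr4a3 probe sets, in the background range, differed by -0.04 and -0.12 and did not pass. The list had 1 lower gene (3.6%, against 3.63% of all genes), Ier3 (-0.82 ± 0.10, SE, adjusted p = 1.31e-06). Ier3 was in the background range in both gates (5.12 and 5.95). Rgs1 did not pass without any 1 of 7 arrays, CD25+CD49f- replicates 1, 3 and 5 and CD25-CD49f+ replicates 1, 3, 4 and 6 (adjusted p up to 0.0761). The lower members were 2 without CD25+CD49f- replicate 1 or CD25-CD49f+ replicate 1. Fos (0.24), Jun (0.16), Egr1 (-0.06), Nr4a1 (0.27) and Cd69 (-0.20) did not pass.

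**Figure D4:**
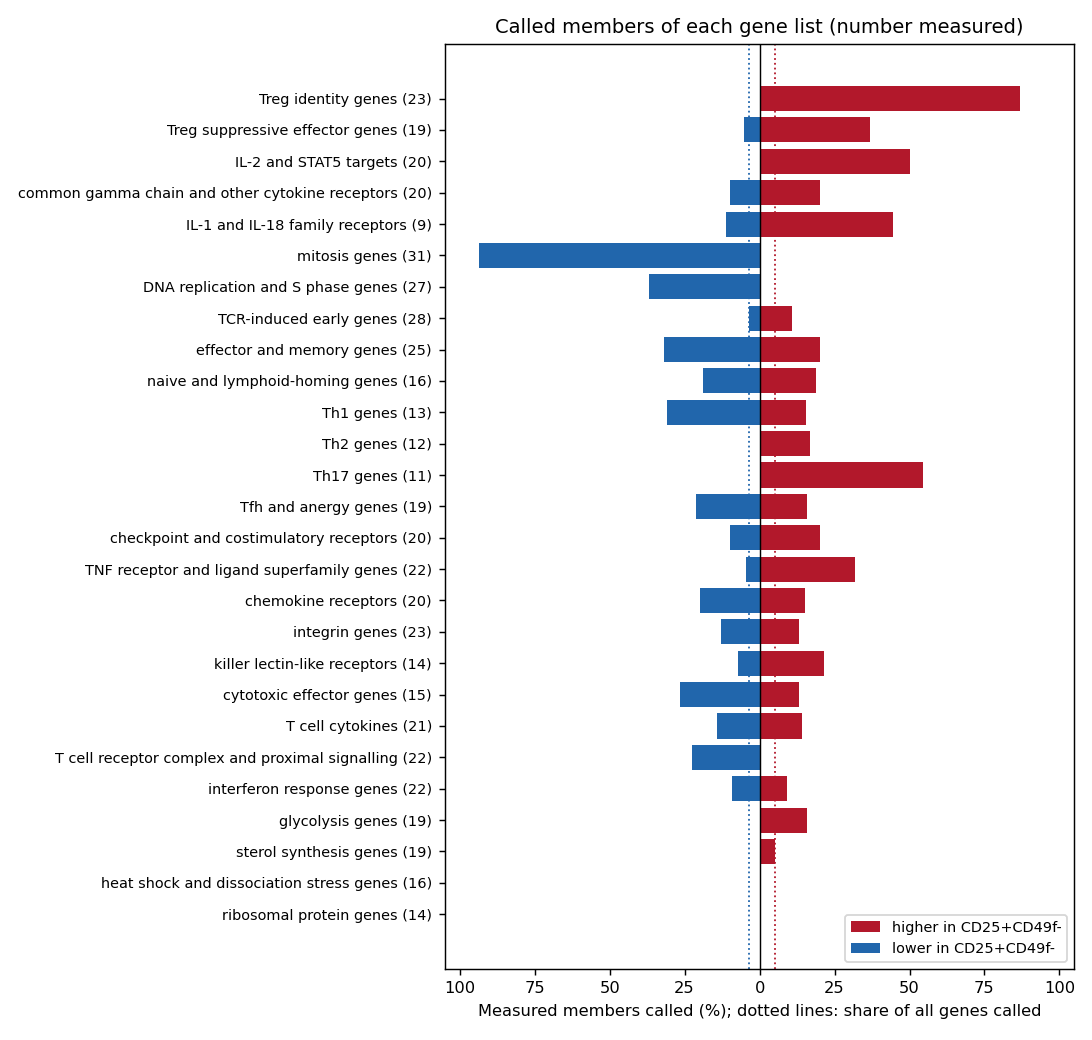
Share of the measured members of each gene list (number measured in parentheses) that was called higher (red, to the right) or lower (blue, to the left) in CD25+CD49f- cells, with CD25-CD49f+ cells as the comparison, in percent. Dotted lines give the share of all genes called in each direction, 5.23% and 3.63%, and the mitosis and Treg identity lists extend farthest from them.

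Sterol synthesis, stress and housekeeping lists held few calls or none. Of 19 measured glycolysis genes 3 were higher (15.8%, against 5.23% of all genes) and none was lower. Ldhb was the clearest of them (0.69 ± 0.09, SE, adjusted p = 1.77e-06). Without CD25+CD49f- replicate 2, 3 or 4 or CD25-CD49f+ replicate 3 the higher members were 1 in place of 3, and without CD25+CD49f- replicate 1 or 2 or CD25-CD49f+ replicate 7 there were 1, 2 and 1 lower members. Of 19 measured sterol synthesis genes 1 was higher (5.3%, against 5.23% of all genes), Hsd17b7 (0.33), which did not pass without CD25+CD49f- replicate 2 or 5 or CD25-CD49f+ replicate 3 or 4. None of 16 heat shock and dissociation stress genes and none of 14 ribosomal protein genes was called by limma, and at an unadjusted p under 0.05 these numbered 3 and 1. Of 22 measured interferon response genes, Usp18 (0.56) and Bst2 (0.46) were higher and Mx1 (-0.71) and Oas3 (-0.46 ± 0.09, SE, adjusted p = 0.000616) lower. That was 9.1% in each direction, against 5.23% of all genes higher and 3.63% lower. Mx1 was in the background range in both gates (4.98 and 5.70). The counts of this list were not stable. None was higher without CD25+CD49f- replicate 2, and 1 was without CD25+CD49f- replicate 1, 3 or 4 or CD25-CD49f+ replicate 3, 4, 5, 6 or 7. The lower members were 1 without CD25+CD49f- replicate 1, 2, 3 or 5 or CD25-CD49f+ replicate 1, 2, 3, 6 or 7.

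Markers of other cell types that a CD4+ gate could admit moved for some types. Of 16 measured B cell markers 5 were higher (31.2%, against 5.23% of all genes) and none was lower. The higher ones were the MHC class II genes H2-Aa, H2-Ab1 and H2-Eb1 with their invariant chain Cd74, and the kinase Blk. H2-Aa had levels of 10.71, 10.73, 10.91, 10.61 and 11.20 in CD25+CD49f- arrays, against a lowest of 9.31, a median of 9.58 and a highest of 10.02 in CD25-CD49f+ arrays, with no overlap (1.21 ± 0.23, SE, adjusted p = 0.000695), and CD25-CD49f- cells stood at 11.11 ± 0.54 (SD, n = 7). H2-Eb1 (1.17 ± 0.26, SE, adjusted p = 0.00371), Cd74 (1.10 ± 0.26, SE, adjusted p = 0.00651), H2-Ab1 (1.13 ± 0.29, SE, adjusted p = 0.0109) and Blk (0.72 ± 0.11, SE, adjusted p = 6.86e-05) rose beside it. The defining B cell genes Cd79a (5.11 in CD25+CD49f- and 5.27 in CD25-CD49f+ cells), Pax5 (5.08 and 5.19) and Ebf1 (3.76 and 3.77) were in the background range in both gates, Cd79b was at 6.61 and 6.60, and Ms4a1 was at 6.43 and 7.20, none of them called. Cd22 was above background in both gates, at 7.90 and 8.31. It ran opposite to the class II genes with no overlap of the arrays, but did not pass (-0.41 ± 0.15, SE, adjusted p = 0.107). The mean level of the B cell list was 7.11 to 7.71 over CD25+CD49f- arrays and 6.90 to 7.58 over CD25-CD49f+ arrays. Immunoglobulin M (Ighm, 12.77 and 13.04) was high in both gates and did not pass, but of 10 further Ighm probe sets 3 were lower in CD25+CD49f- cells, by -0.96, -1.11 and -0.65 (adjusted p = 0.00584, 0.0293 and 0.0289). Of 21 measured myeloid and dendritic cell markers 4 were higher (19.0%) and 1 was lower (4.8%). The higher ones were Fcer1g (1.59 ± 0.26, SE, adjusted p = 0.000106), Tcf4 (1.10), Adgre1 (0.60 ± 0.15, SE, adjusted p = 0.00986) and Bst2, and the lower one was Fcgr3 (-0.62). Fcgr3 was in the background range in both gates (5.65 and 6.28). Without CD25+CD49f- replicate 3 or 5 or CD25-CD49f+ replicate 3 the higher members were 2 in place of 4, and without CD25+CD49f- replicate 1 or 3 or CD25-CD49f+ replicate 6 or 7 none was lower, whereas 5 were without the 4 arrays that stood apart. Their list averaged 6.51 to 6.83 over CD25+CD49f- arrays and 6.51 to 6.91 over CD25-CD49f+ arrays, while Csf1r (7.73 and 8.50) and Lyz2 (8.55 and 9.28) were measurable in both gates and did not pass. The part of such cells in the differences of the class II genes was not tested.

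Of 10 measured neutrophil markers 5 were lower in CD25+CD49f- cells and none was higher, or 3 lower without CD25+CD49f- replicate 2. The lower markers were 7 without CD25+CD49f- replicate 5 or CD25-CD49f+ replicate 1, and 8 without the 4 arrays that stood apart. Mpo, the myeloperoxidase of neutrophil granules, had levels of 5.83, 5.87, 5.26, 6.57 and 6.27 in CD25+CD49f- arrays, against a lowest of 7.49, a median of 7.82 and a highest of 8.55 in CD25-CD49f+ arrays. The groups did not overlap (-1.98 ± 0.23, SE, adjusted p = 8.02e-07), and CD25-CD49f- cells stood at 7.72 ± 0.49 (SD, n = 7). Mmp8 (-0.53 ± 0.13, SE, adjusted p = 0.00785), Ltf (-0.77 ± 0.20, SE, adjusted p = 0.012), Elane (-0.52 ± 0.14, SE, adjusted p = 0.0194) and S100a9 (-0.79) fell with it, and S100a8 (-0.63) did not pass. The list averaged 6.53 to 7.09 over CD25+CD49f- arrays and 7.25 to 7.70 over CD25-CD49f+ arrays. Of the 10 markers 4 were in the background range in both gates, among them the called Mmp8 and Elane. Of 8 measured erythroid markers 3 were lower (37.5%) and 1 higher (12.5%). The lower ones were Car1 (carbonic anhydrase 1), Klf1 (-1.01 ± 0.15, SE, adjusted p = 3.6e-05) and Rhd (-0.36). Car1 had levels of 5.99, 6.36, 5.96, 6.16 and 4.56 in CD25+CD49f- arrays, against a lowest of 7.50, a median of 7.97 and a highest of 8.69 in CD25-CD49f+ arrays (-2.26 ± 0.32, SE, adjusted p = 1.32e-05). CD25+CD49f- replicate 5 was lowest, and the groups did not overlap without it either. Gata1, a factor of red cell precursors that is also on the Treg list, was higher (1.20 ± 0.11, SE, adjusted p = 5.9e-09), and the haemoglobin gene Hba-a1 (4.62 and 4.59) was in the background range in both gates. The erythroid list averaged 5.59 to 5.77 over CD25+CD49f- arrays and 5.90 to 6.27 over CD25-CD49f+ arrays. Of the 8 markers 4 were in the background range in both gates, among them the called Rhd (5.51 and 5.86). The part of neutrophil and erythroid precursors in these differences, and in that of the mitosis genes, was not tested.

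Markers of the remaining types were called in part. Of 12 measured NK cell markers 3 were higher and 2 lower, all shared with the T cell lists above except Ncr1 (0.34), which was in the background range. Of 7 CD8 T cell markers 2 were lower (28.6%), Gzmk and Klrd1, and 1 was higher (14.3%), Eomes, while Cd8a (6.63 and 6.52) and Cd8b1 (5.01 and 5.04) did not pass. Of 6 measured gamma delta and NKT cell markers 2 were higher (33.3%), Blk and the scavenger receptor family gene 5830411N06Rik (0.74), and Cd163l1 (0.08) and Zbtb16 (-0.09) did not pass. A further Cd163l1 probe set, in the background range in both gates, was higher by 0.72 (adjusted p = 0.00925). Of 14 measured platelet and megakaryocyte markers 3 were lower (21.4%, against 3.63% of all genes), Pf4 (-0.46 ± 0.11, SE, adjusted p = 0.00554), Itgb3 and Vwf (-0.38), and 1 was higher (7.1%, against 5.23%), Nrgn (0.91 ± 0.09, SE, adjusted p = 4.72e-08), with 12 of the 14 in the background range in both gates, Pf4 among them. Without CD25+CD49f- replicate 1 the counts were 1 lower and 2 higher. Of 7 plasma cell markers 2 were higher (28.6%), Prdm1 and Xbp1 (0.60), and Jchain (10.81 and 11.47) did not pass. Further Xbp1 probe sets (0.32, 0.28 and 0.05) did not pass either. The probe set used for Sdc1 did not pass (0.26), but 2 further Sdc1 probe sets, both in the background range, were higher by 2.67 and 1.17 (adjusted p = 6.39e-10 and 1.85e-05). One of the higher markers was lost without any 1 of 8 arrays, CD25+CD49f- replicates 1 to 5 and CD25-CD49f+ replicates 1, 4 and 6, and 1 marker was lower without CD25+CD49f- replicate 2 or CD25-CD49f+ replicate 1 or 3, and 3 were without the 4 arrays that stood apart. Of 11 measured stromal and endothelial markers 1 was lower, Acta2 (-0.71), and 1 higher, Tek (0.39), both in the background range. That was 9.1% in each direction, against 5.23% of all genes higher and 3.63% lower. Of 11 thymocyte markers Ccr9 was higher and Themis lower, again 9.1% in each direction. Rag1 (3.21 and 3.21), Dntt (5.67 and 5.80) and Ptcra (4.99 and 4.85) were in the background range in both gates.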

How the data were processed

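Total RNA of sorted cells was labelled and hybridised to Affymetrix arrays of 45101 probe sets. The authors deposited log2 values normalized by RMA over all 23 arrays, per the submitters' processing notes, with a version not given in the sources used here. Of the probe sets 34958 name 1 gene, 932 several and 9211 none, and 34754 of the first matched a RefSeq gene. Each of the 18194 genes was read from the probe set that was brightest on average over all 23 arrays, a choice that matters for the 9012 genes with several probe sets. A model with a mean for each of the 4 gates was fitted to all 23 arrays with limma 3.58.1 (lmFit, contrasts, eBayes) in R 4.3.3. Every adjusted p is limma's with Benjamini-Hochberg adjustment over all 18194 genes, called under 0.05. Python 3.11.15, pandas 2.3.3 and matplotlib 3.10.9 made tables and figures. On simulated data (18194 genes, same design) the fit was tested and recovered 67.2% of changes of 0.5, 98.5% of changes of 1 and all changes of 2 (100%), on the log2 scale. It made 14 false calls among unchanged genes. The simulated noise was normal and independent between genes and arrays, with no array that stood apart, so recovery on the real arrays may be lower.

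Genes were named by rule: the sort markers with Itgb1 and Foxp3, the 12 largest called changes above background in each direction, up to 5 called and 2 uncalled members of each list by p, and the 6 largest changes among genes whose arrays lay beyond those of all other gates. Clone numbers and Xist with Y-linked genes were passed over in that ranking. Other list members are named outside the rule, after their values were seen, as are 1810073O08Rik and A630023P12Rik. The comparison, members and lists were chosen with earlier results of these data known, and no list was tested as a set. The number of arrays limits the precision. Both gates carry replicate numbers 1 to 5, and deviations of same-numbered arrays correlated at -0.193, 0.267, -0.23, 0.012 and 0.169. Only for number 2 was the same-numbered array the best match. These values do not show that the numbers pair the samples, and they cannot exclude it. Numbers 3 and 4 had high Y-linked transcripts in CD25+CD49f- cells but not in CD25-CD49f+ cells. Alternatives left out each array, the 4 arrays that stood apart (chosen after seeing the data) and arrays by Y-linked transcripts, and changed the scaling, the weights, the probe set, the filter on dim genes, the threshold and covariates.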

Additional observations from a re-analysis of the deposited data

Results flagged for a closer look

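Among the 122 genes followed by array, each read in both gates, 23 of the 244 groups had 1 array far from the others by Dixon's test, which chance gives in about 5% of groups. Of these, 11 fell on CD25-CD49f+ replicate 1 and 6 on CD25+CD49f- replicate 5, the arrays with the lowest correlation to their gates.

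CD25-CD49f+ replicate 1 was lowest of its gate for Itgb1 (10.24, nearest array 10.90), Depdc1a (5.92, nearest 7.21), Bub1 (6.34, nearest 7.61), Pclaf (9.60, nearest 10.16), Itgb8 (5.60, nearest 6.82), Ndrg1 (7.09, nearest 7.50) and Nt5e (8.97, nearest 9.21). It was highest of its gate for Cd4 (9.88, nearest 9.57), Nsg2 (10.66, nearest 10.36), Pdlim4 (9.30, nearest 8.66) and Thy1 (12.23, nearest 11.84). The mitosis kinase gene Bub1 and the mitosis gene Depdc1a were thus less high on this array than on the other 6 of its gate.

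CD25+CD49f- replicate 5 was lowest of its gate for Arnt2 (8.25, nearest 8.52), Sdc4 (8.33, nearest 9.20), Car1 (4.56, nearest 5.96), Ehd3 (8.98, nearest 9.36), Izumo1r (9.84, nearest 10.41) and Tnfrsf18 (10.15, nearest 10.76). Its Actb 3' to 5' difference of 4.83 was the highest of the 12 arrays, and its part in these values was not tested.

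The remaining values were single ones. Dapl1 was low on CD25+CD49f- replicate 1 (7.01, nearest 7.43), Anxa2 high on CD25+CD49f- replicate 2 (8.93, nearest 8.57) and Gzmk low on CD25+CD49f- replicate 4 (6.15, nearest 6.37). Entpd1 was low on CD25-CD49f+ replicate 3 (5.50, nearest 5.77), Mapk10 on CD25-CD49f+ replicate 6 (2.44, nearest 2.67) and Ccr10 on CD25-CD49f+ replicate 7 (6.17, nearest 6.67).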

How the results depend on the processing

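Leaving out any 1 array gave 771 to 947 genes higher and 549 to 710 lower in CD25+CD49f- cells. A replicate block gave 867 higher and 612 lower, but the correlations of same-numbered arrays above do not show that the numbers pair the samples. The counts moved by over 1.5 times with array weights (1828 higher, 1135 lower), at an adjusted p under 0.01 (603 and 430), at a difference of at least 1 (159 and 141), in arrays without Y-linked transcripts (470 and 225), in arrays with Y-linked transcripts and without Xist (237 and 188) and without the 4 arrays that stood apart (1600 and 1004). The stricter thresholds and the smaller sets of arrays lower the counts by construction, and the cause of the others was not tested. In these settings and with quantile normalization (882 and 777), equal array medians (818 and 718), probe sets averaged (952 and 727), brighter genes only (728 and 549), a Y-linked covariate (938 and 644) or an Actb covariate (891 and 513), 0 of the 1612 calls by limma turned to a call in the opposite direction. Every setting reuses the same arrays or part of them, so a reversal was unlikely from the start.

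Of the 122 genes followed by array, 117 were called, and 76 of these passed in the same direction in every setting that held them, which was all 27 for 97 of the 122 genes and 26 for the 25 that were not among the brighter genes. Averaging probe sets turned the differences of Tpx2 to -0.74 and of Cdca3 to -0.51, from values near 0, because their further probe sets were lower in CD25+CD49f- cells. With probe sets averaged, H2-Ab1 (0.82, adjusted p = 0.194), Nxpe2 (-0.05, 0.828) and Itga6 (0.22, 0.57) did not pass. With the Actb covariate Elane (-0.46, 0.0889), Ltf (-0.68, 0.0671), Itga7 (-0.64, 0.0854) and Rgs1 (0.73, 0.0953) did not pass, and 3 of the neutrophil markers were lower in place of 5. Without the 4 arrays that stood apart, further list counts moved by over 1.5 times: 5 in place of 3 were higher for chemokine receptors and for cytokines, 5 in place of 2 for cytotoxic genes and 4 in place of 2 for interferon response genes. Lower members were 3 in place of 1 for killer lectin-like receptors, 4 in place of 2 for both NK and CD8 T cell markers and 2 in place of 1 for early T cell receptor genes and for the TNF families. Where the calls above had 0 members, 1 was lower for B cell markers and sterol synthesis and 1 higher for heat shock genes and the T cell receptor complex. Low signal over background limits, among T cell lists, 10 of 14 killer lectin-like receptors and 11 of 21 cytokines, and among other lists 12 of 14 platelet and 10 of 11 stromal markers.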

Other observations

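The gates differed in genes outside the lists as well. The secreted heavy chain gene Itih5 was higher by 2.86, with means of 9.46 in the CD25+CD49f- and 6.60 in the CD25-CD49f+ gate, and Bmp2, a ligand of the TGF-beta superfamily, was at 5.80 and 2.93, in the background range in both gates. Psd2 was at 6.35 in the CD25+CD49f- and 3.35 in the CD25-CD49f+ gate, again under the background level. These genes were named after their values were seen.

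The difference between the gates was also compared between arrays with Y-linked transcripts and arrays without them. No gene passed by limma for a change of the difference with that split, 257 did so at an unadjusted p under 0.05, and only 2 CD25+CD49f- arrays stood on each side once replicate 5 was left aside.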
